A study of Bos taurus with 12 samples.

Results

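The microRNA processing genes described here are 10 genes that make microRNAs from their transcripts or form the complexes in which microRNAs act: DROSHA, DGCR8, XPO5, DICER1, TARBP2, AGO1, AGO2, AGO3, AGO4 and TNRC6A. They were chosen by name, and their probes were those whose RefSeq transcript belonged to one of these symbols (the Argonaute genes may be listed under EIF2C). Of the 10 genes, 6 had such a probe, with 15 probes among them, out of 12787 genes with a symbol on the array. The tissue was mammary gland from lactating Holstein (HOLS) cows, measured on one-colour Agilent bovine arrays with 1 array per biopsy. In the control period (CONT, day 0) the cows ate a lactation diet freely, and in the restriction period (REST, day 6) the feed offered to the same cows was cut to cover 50% of their net energy needs for lactation. The labels name 6 cows, each biopsied in both periods, which gave 12 arrays, whereas the series description counts 5 cows. The study's methods state that 1 HOLS cow was excluded for mastitis. The labels do not say whether that cow is among these 6. Both biopsies of a cow were hybridised on 1 slide, slide 1 holding cows 1 and 2, slide 2 holding cows 3 and 4, and slide 3 holding cows 5 and 6. Because CONT always came first, the diet and the passing of time between biopsies cannot be told apart.

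A microRNA is transcribed as a long hairpin-bearing RNA that the nuclease DROSHA and its RNA-binding partner DGCR8 trim in the nucleus, and XPO5 carries the resulting hairpin to the cytoplasm. There DICER1, with its partner TARBP2, cuts off the loop, and 1 strand is loaded into an Argonaute protein (AGO1 to AGO4), which through TNRC6 proteins recruits the enzymes that shorten and silence target mRNAs. Most microRNAs therefore depend on these same few proteins, and the lactating mammary gland is a tissue rich in microRNAs, many of which also pass into milk.

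Values are given as normalized signal, the log2 of the deposited processed intensity minus the 75th percentile of the same array, so 0 is the 75th percentile and each unit is a doubling. A change is REST minus CONT on this scale, with the cow in the limma model, and passed at an adjusted p below 0.1 over all tested probes. Levels of different probes are not comparable, because probes differ in how brightly they hybridise.

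The arrays of slide 3 were dimmer than the others. Their 75th percentile was 73.2 to 117 intensity units and 41.9% to 48.0% of their spots were well above background, against 252 to 390 units and 61.8% to 67.9% on slides 1 and 2. The 75th percentile was higher in REST than in CONT in 6 of 6 cows. Of 11 markers of luminal secretory epithelium fixed for the check of tissue, 10 had a probe, and all 10 were well above background on all 12 arrays, while of the 3 adipocyte markers with a probe, CIDEC was on 8 arrays, LEP on 4 and PLIN1 on 0. Markers of other cell types were well above background on all 12 arrays too, with 5 of 5 for myoepithelium, 4 of 4 for endothelium, 6 of 6 for fibroblasts and 6 of 6 for leukocytes. Between periods 2 of 10 tested luminal markers passed upward and 2 downward. Upward passed 1 of 4 endothelial and 1 of 6 leukocyte markers, and downward 1 of 5 myoepithelial and 1 of 2 skeletal muscle markers. None passed of 6 tested fibroblast markers and 1 tested erythrocyte marker. Over the whole array 20.5% of tested genes had a passing probe, so these few calls are not read as results about cell types. The summed endothelial signal, in multiples of the 75th percentile, was 7.67 to 10.6 in CONT and 9.29 to 11.7 in REST. In the same order it was 8.67 to 11.1 and 9.05 to 12.3 for leukocytes, 2.22 to 3.77 and 1.81 to 3.003 for skeletal muscle, 13.7 to 20.1 and 10.3 to 20.4 for erythrocytes, 34.2 to 63.9 and 26.5 to 73.5 for fibroblasts, and 78.3 to 153 and 74.5 to 145 for myoepithelium. For luminal epithelium it was 5084 to 6506 in CONT and 4267 to 5628 in REST. That sum mostly follows its brightest genes, CSN1S1, CSN1S2, CSN3, LALBA, PAEP, BTN1A1 and XDH. Of these, all but XDH had a lower mean in REST. The dimmer KRT8, KRT18 and EPCAM had higher means in REST. Their mean normalized signal was 2.48, 1.09 and 3.78 in CONT and 3.19, 1.61 and 4.11 in REST. The luminal sum is therefore not read as the amount of epithelium. The ranges of the 2 periods overlapped for each of these sums, but such ranges ignore the pairing by cow. The log2 change of the sum was 0.32 for endothelium, 0.07 for leukocytes, -0.34 for skeletal muscle and -0.34 for erythrocytes. It was -0.13 for fibroblasts, -0.14 for myoepithelium and -0.18 for luminal epithelium. Overlap therefore does not show that the composition stayed the same. The part of cell types in the changes given below was not tested. No cell type can be assigned from these bulk biopsies, in which fewer cells of a type and less RNA per cell cannot be told apart.

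None of the microRNA processing genes passed the test. Only probes that stood well above background on every array of 1 period or of both entered the test, which left 7 of the 15 probes and 5 genes, DGCR8, DICER1, TARBP2, AGO1 and AGO3. Of these 7 probes, 0 passed in limma and 0 had an unadjusted p below 0.05 there (0 in the methods' t-test after adjustment, and 2 at an unadjusted p below 0.05 in its paired form), while 3 were higher and 4 lower in REST on average. The changes ran from -0.17 to 0.11, and the largest amounted to 1.13-fold. In the whole array 3104 of 19403 tested probes passed, which is 16.0%, and that share of 7 probes is 1.12 probes. With any passing probe counted, 20.5% of the 7930 tested genes passed (9.07% with a higher and 11.5% with a lower probe) against 0 of 5 here. A count of 0 among so few therefore does not set these genes apart from the rest. The median absolute change was 0.11 for the 7 probes and 0.15 over all tested probes.

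**Figure D1:**
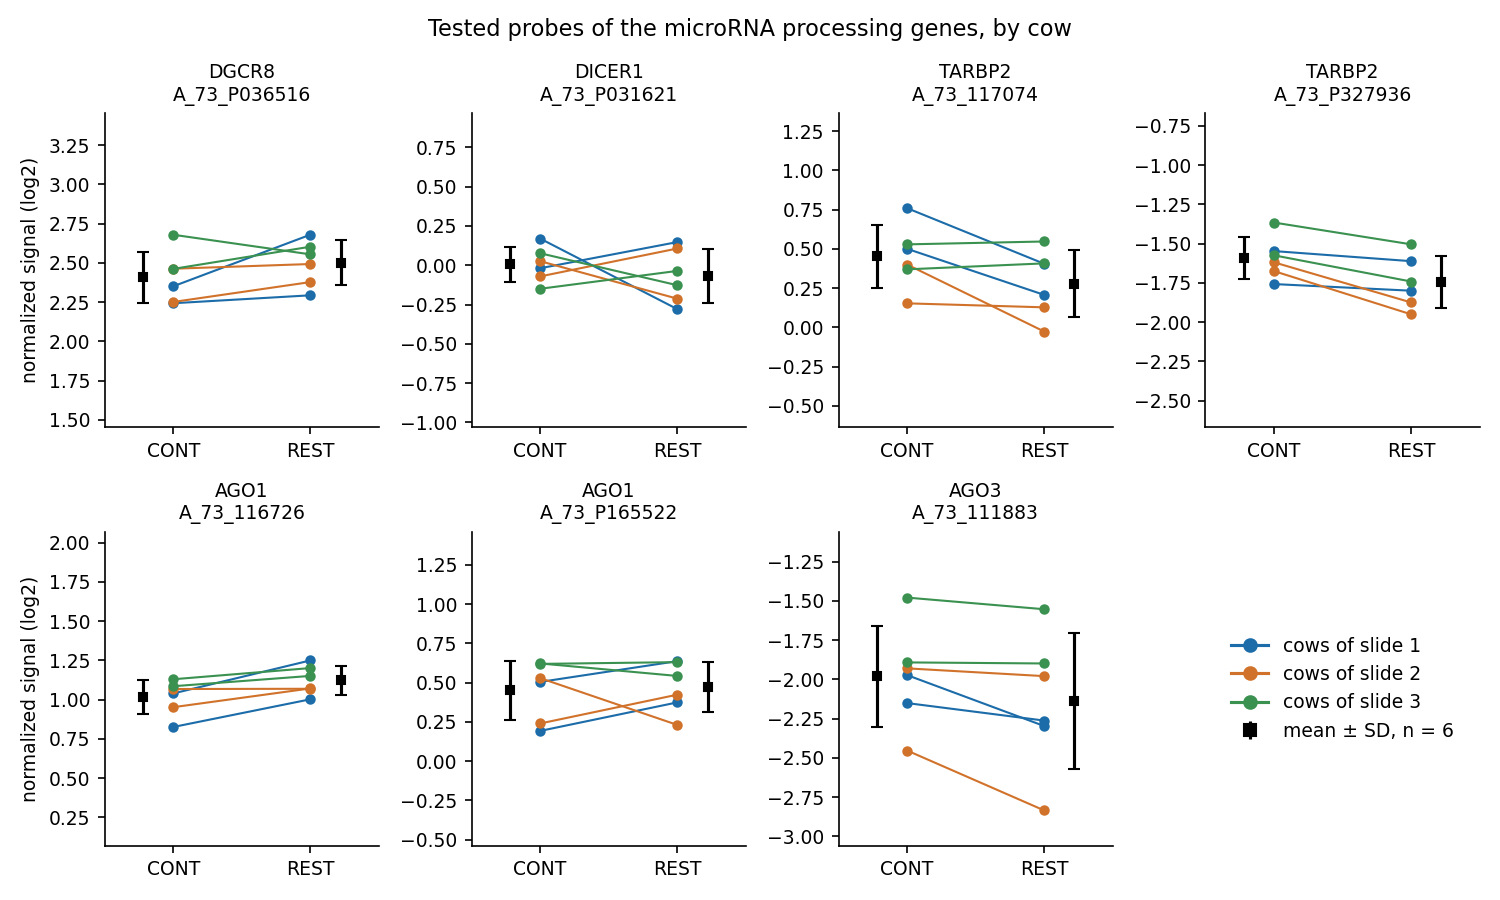
Normalized signal (log2, y axis) of the 7 tested probes in CONT and REST. Each line joins the 2 biopsies of a cow, coloured by slide, black squares are group means with SD (n = 6), and every panel spans 2 log2 units. The periods overlap in all 7 panels, and TARBP2 probe A_73_P327936 and AGO3 are lower and AGO1 probe A_73_116726 higher in REST in 6 of 6 cows.

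In the nuclear step, DGCR8 was the gene that could be measured. Its probe A_73_P036516 ranged in CONT from 2.24 to 2.68 with a median of 2.41, and in REST from 2.29 to 2.68 with a median of 2.52. The periods thus covered nearly the same range, with REST higher in 5 of 6 cows and cow 6 going the other way. The change was 0.09 (SE 0.08, 95% interval -0.10 to 0.28, limma adjusted p = 0.501). It was 0.045 without cow 1, and 0.19 (interval -0.0010 to 0.37, limma adjusted p = 0.174) with the normexp background correction. The change was 0.33 in cow 1, the highest of the 6, and -0.12 in cow 6, the lowest. The second DGCR8 probe, A_73_P451836, was well above background on 3 CONT and 5 REST arrays and was not tested. Its changes in single cows ran from -1.47 in cow 5 to 2.04 in cow 6. It could be tested without cow 5 (0.70, interval 0.07 to 1.33, limma adjusted p = 0.142) and without slide 3 (0.37, limma adjusted p = 0.203), and passed in neither. In both settings it entered the test only through its REST arrays, where it was higher. These values are therefore no support for a change. No probe of DROSHA or of the export receptor XPO5 was found by the rule, so these genes were not analysed here.

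DICER1, the nuclease that cuts the hairpin loop in the cytoplasm, showed no common direction among the cows at its tested probe. In CONT its probe A_73_P031621 ranged from -0.15 to 0.17 with a median of 0.00, and in REST from -0.28 to 0.15 with a median of -0.08. The change was -0.07 (SE 0.11, interval -0.31 to 0.17, limma adjusted p = 0.692), with 3 cows higher and 3 lower. Cow 2 had the lowest change, -0.45, and cow 3 the highest, 0.18. Without cow 2 the change was 0.0032, so that its sign turned. The second DICER1 probe, A_73_P150061, was well above background on 4 arrays of each period and was not tested. Its mean change was 0.40 with an SD of 0.75 over cows, 5 of 6 cows being higher in REST, from -0.55 in cow 2 to 1.69 in cow 5 on the dim slide.

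TARBP2, the double-stranded RNA-binding partner of DICER1, had lower means in REST at both tested probes without passing. At A_73_117074 the CONT values ran from 0.15 to 0.76 (median 0.45) and the REST values from -0.03 to 0.55 (median 0.31). The change was -0.17 (SE 0.09, interval -0.39 to 0.04, limma adjusted p = 0.263), with 4 of 6 cows lower. It was split by slide, at -0.32 on slide 1, -0.23 on slide 2 and 0.03 on slide 3, the dim slide. Without slide 3, a setting chosen after the data were seen, it was -0.28 (limma adjusted p = 0.192), and with normexp it was -0.11.

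The other tested TARBP2 probe was more even among cows (SD of the change 0.096, against 0.21 at the first). At A_73_P327936 CONT ran from -1.76 to -1.37 (median -1.60) and REST from -1.95 to -1.50 (median -1.77). All 6 cows were lower in REST, by values between -0.28 and -0.04, although the periods overlapped. The change was -0.16 (SE 0.07, interval -0.33 to 0.01), with the lowest adjusted p of the 7 probes (0.208 in limma, 0.0647 before adjustment). The other 3 TARBP2 probes were well above background on 2 to 4 arrays of a period, were not tested, and had mean changes of 0.07, 0.15 and -0.18. The 0.15, at A_73_P439981, was higher in REST in 6 of 6 cows (SD 0.19), opposite in sign to the tested probes. The 0.07, at A_73_P359741, included a change of 1.48 in cow 6. Without slide 3 that probe could be tested, and its change was -0.33 (interval -0.65 to -0.02, limma adjusted p = 0.177), so that its sign turned.

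DICER1 and TARBP2 were the only planned pair of partner proteins with a tested probe on each side. The change of DICER1 minus that of TARBP2 was 0.10 ± 0.27 (SD, n = 6), with DICER1 higher in 4 of 6 cows. It was 0.018 without cow 1, 0.15 without cow 2, 0.17 without cow 6 and 0.027 with normexp. The difference was smaller than its spread over cows (two-sided exact sign-flip permutation test, p = 0.406, where 6 cows allow no p below 0.0313).

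Among the Argonaute genes, which hold the guide strand, AGO1 and AGO3 were tested and neither passed. They lie next to each other, with AGO4 beyond AGO1, as consecutive protein-coding genes in the ARS-UCD2.0 assembly of the cow. AGO1 probe A_73_116726 ran from 0.83 to 1.13 in CONT (median 1.05) and from 1.002 to 1.25 in REST (median 1.11). It was higher in REST in 6 of 6 cows, by 0.00 to 0.21, with a change of 0.11 (SE 0.07, interval -0.06 to 0.27, limma adjusted p = 0.367). The second tested AGO1 probe, A_73_P165522, did not share that evenness. Its values ran from 0.19 to 0.62 in CONT (median 0.52) and from 0.23 to 0.64 in REST (median 0.48). Its change was 0.02 (SE 0.09, interval -0.18 to 0.22, limma adjusted p = 0.899), with 4 cows higher and 2 lower. The third AGO1 probe was too dim to test.

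AGO3 differed more between cows than between periods. Probe A_73_111883 ran from -2.45 to -1.48 in CONT (median -1.95) and from -2.83 to -1.55 in REST (median -2.12). Cow 4 was lowest and cow 6 highest in both periods. All 6 cows were lower in REST, by values between -0.38 and -0.01, and the change was -0.16 (SE 0.08, interval -0.35 to 0.03, limma adjusted p = 0.256). Without the cow in the model the SE was 0.20 and the interval widened to -0.59 to 0.27. In all 6 cows the change of AGO1 lay above that of AGO3 at AGO1 probe A_73_116726, by 0.27 ± 0.21 (SD, n = 6; range 0.05 to 0.53). This contrast was chosen after its values were seen and was not tested, and under normexp it held in 5 of 6 cows. With AGO1 probe A_73_P165522 it was 0.18 ± 0.31 (SD, n = 6) and held in 4 of 6 cows.

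AGO2, the Argonaute that can cut its target, was at the edge of measurement. Probe A_73_P045226 was well above background on 5 of 6 arrays in each period, the exceptions being the 2 arrays of cow 6 on the dim slide, and so was not tested. It ran from -2.97 to -1.77 in CONT (median -2.43) and from -2.82 to -2.06 in REST (median -2.48), with a mean change of -0.06 and 4 of 6 cows lower. Without cow 6 it could be tested, and its change was -0.02 (limma adjusted p = 0.944). Without slide 3 its change was 0.05 (limma adjusted p = 0.875), so that its sign turned. The other AGO2 probe was well above background on 1 CONT array and on 0 REST arrays. For AGO4, and for TNRC6A, the scaffold that links Argonautes to the deadenylases, no probe was found by the rule.

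**Figure D2:**
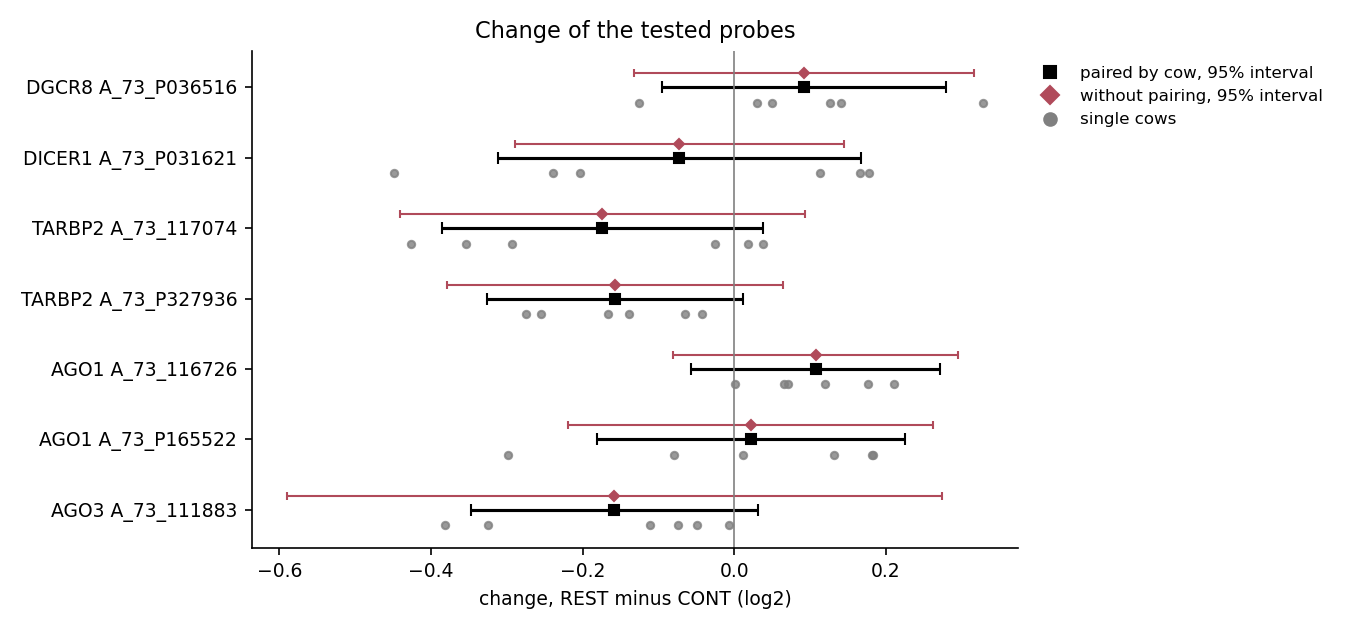
Change (REST minus CONT, log2, x axis) of the 7 tested probes. Black squares and bars are the limma change and 95% interval with the cow in the model, red diamonds and bars the same without it, and grey points the 6 cows. All 14 intervals cross 0, and that of AGO3 narrows most when the cows are paired.

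The 7 intervals show, each for its own probe and not jointly, what size of change these data leave room for. With the cow in the model they reached from -0.39 to 0.28, which is 1.31-fold at the widest bound. In other settings single intervals reached further, to 0.37 at DGCR8 with normexp and to -0.55 at TARBP2 probe A_73_117074 without slide 3. Without pairing the 7 intervals reached from -0.59 to 0.32, or 1.51-fold. There 0 of 7 passed, when 4.32% of all tested probes and 5.67% of genes did. Precision fell with signal, since the change had an SD over cows of 0.08 to 0.26 at the 7 tested probes and of 0.19 to 1.15 at the 8 probes that were not tested. With no filter on dim probes, all 15 could be fitted and 0 passed, when 0.884% of all probes did, so that this count says nothing of the members.

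**Figure D3:**
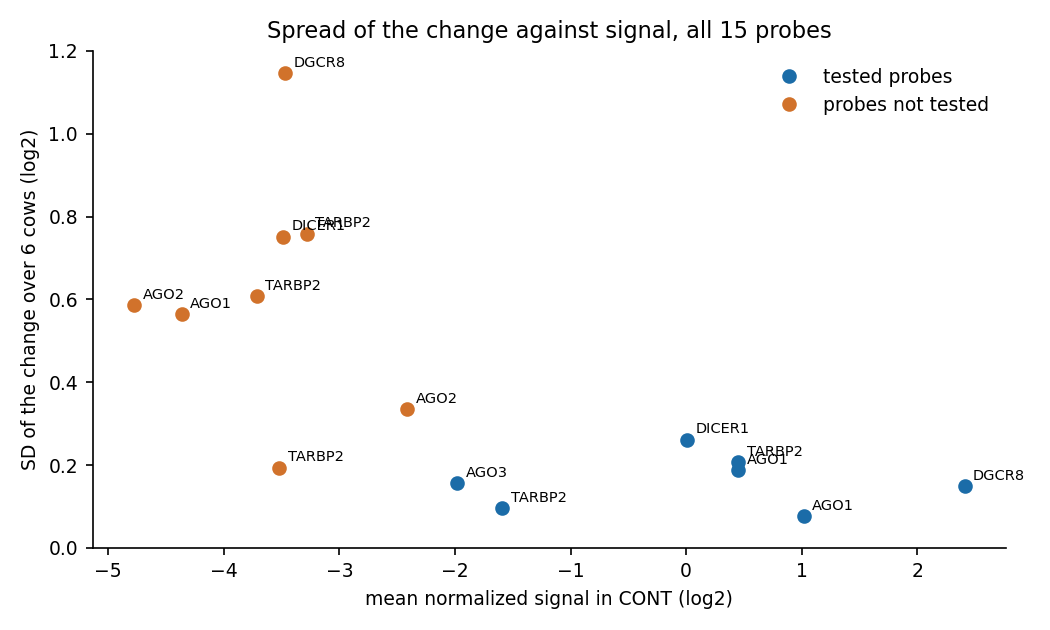
SD of the change over 6 cows (log2, y axis) against mean normalized signal in CONT (log2, x axis) for all 15 probes. The tested probes (blue) lie between 0.08 and 0.26, and 7 of the 8 untested probes (orange) lie above all of them, the exception being a TARBP2 probe at 0.19.

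Other genes of the same pathway were taken from a list of 62, of which 48 had a probe and 43 a tested one. Here 3 genes had a probe that passed upward in REST (HNRNPA1, XRN2 and MOV10), 1 had probes that passed downward (DDX5), and 39 had none. The 4 genes are 9.30% of the 43, against the 20.5% of all tested genes given above. With normexp the order of the shares turned, at 13 of 43 genes (30.2%) against 24.5% of all tested genes, so neither order is read as a property of the list. The median change over the list, with 1 probe per gene, was 0.05, beside -0.01 over all genes tested.

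Among the partners of the nuclear step, 9 genes were tested, with 1 passing in each direction. DDX5, an RNA helicase that works with DROSHA on some hairpins, passed downward at 3 of its 5 tested probes. At A_73_P451136 it went from 2.05 ± 0.19 to 1.38 ± 0.39 (SD, n = 6), a change of -0.67 (SE 0.11, limma adjusted p = 0.0158). The other probes that passed changed by -0.69 and -0.51, and all 3 were lower in 6 of 6 cows. Without the cow in the model 2 of these 3 passed, and the third, A_73_P476814, was lost without cow 2 (limma adjusted p = 0.107) or cow 4 (0.103). The remaining DDX5 probes, A_73_107189 and A_73_P168492, changed by -0.03 and -0.01 (limma adjusted p = 0.873 and 0.967). The probes of DDX5 therefore disagreed, and no direction is given for the gene. Which exons the 5 probes match was not analysed here.

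HNRNPA1, which binds the loops of some microRNA hairpins, rose at 1 of its 4 tested probes. At A_73_P036154 it went from 3.77 ± 0.12 to 4.16 ± 0.25 (SD, n = 6), a change of 0.39 (SE 0.09, limma adjusted p = 0.0393), with 6 of 6 cows higher. Its other 3 probes changed by 0.25 to 0.43, with 5 of 6 cows higher at each, and did not pass. Those 3 did pass with normexp (limma adjusted p = 0.0541 to 0.0737) and without cow 5 (0.0325 to 0.0508), whereas no HNRNPA1 probe passed without the cow in the model or without cow 2 (0.115 and 0.111 at A_73_P036154). Mammalian genomes hold near-identical copies of HNRNPA1, and binding of their transcripts to these probes was not tested.

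Of the 6 tested genes of precursor cleavage, tailing and decay, XRN2 had 1 of 5 probes that passed. XRN2 is a nuclear exonuclease that degrades RNA from its 5′ end. Probe A_73_P073861 changed by 0.39 (limma adjusted p = 0.0595) and its other 4 probes by 0.11 to 0.14. The call was lost under normexp, where the change was 0.02, and without the cow in the model (limma adjusted p = 0.240). It was also lost without cow 2, 3, 4 or 6, with limma adjusted p between 0.111 and 0.168. No XRN2 probe passed with no filter on dim probes or in either form of the methods' t-test. The same held under a stricter filter, which dropped a probe if any array of either period fell short. Whether A_73_P073861 left the test there or missed the threshold is not shown.

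Of the 18 tested silencing effectors, MOV10, an RNA helicase found with Argonautes, had 1 of 3 probes that passed. Probe A_73_P338851 changed by 0.32 (limma adjusted p = 0.0523) with 6 of 6 cows higher, and its other probes by 0.26 and 0.28. Under normexp that probe did not pass (0.16, limma adjusted p = 0.224) but its other probes did. No MOV10 probe passed without cow 2, 3 or 4 (0.101 to 0.153 at A_73_P338851) or without slide 3. TNRC6B, a paralogue of TNRC6A picked after its values were seen, changed by 0.20 (SE 0.10, limma adjusted p = 0.248). The remaining effectors, among them the deadenylase subunits CNOT1, CNOT2, CNOT6, CNOT7 and CNOT8, had 0 passing probes in this setting.

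In the other roles 0 genes passed in the limma model, with or without the cow. These were the 2 tested genes of nuclear export (changes of -0.06 and -0.03), the 6 of Argonaute loading and import, which include the chaperones HSP90AA1 and HSP90AB1 (-0.20 to 0.21), and the 2 of microRNA turnover (-0.07 and -0.03). The calls in these and the earlier roles depended on the background correction. With normexp, 10 genes that had not passed did so at 1 probe or more. Upward these were HSP90AA1, HSP90AB1 and PTGES3 of Argonaute loading, the poly(A)-binding protein PABPC1 (0.38 to 0.54 at 3 probes, limma adjusted p = 0.0298 to 0.0526), and DDX17, a paralogue of DDX5. Downward these were IPO8 of Argonaute import, ILF2 of the nuclear partners and TSNAX of precursor decay. The effectors CNOT7 (-0.28) and DDX6 (-0.26) also passed downward, each at 1 probe. Their brightest probes changed by 0.08 and 0.24 with normexp, so no direction is given for these genes.

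**Figure D4:**
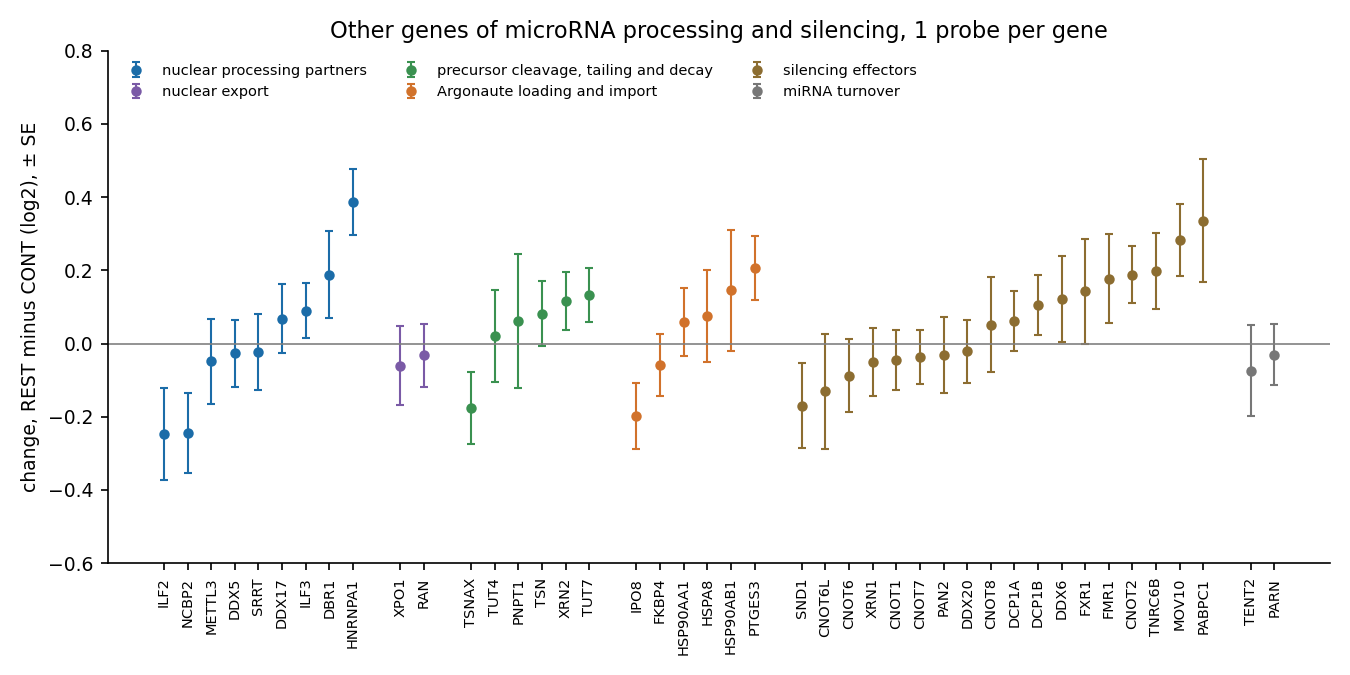
Change (REST minus CONT, log2, y axis) with SE for the 43 tested genes of the pathway list, at the brightest tested probe of each gene and ordered within each role. The values lie between -0.25 and 0.39. DDX5 (-0.03) and XRN2 (at most 0.14 at every probe but the passing one) lie near 0 here, since the probes that passed were not their brightest.

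**Figure D5:**
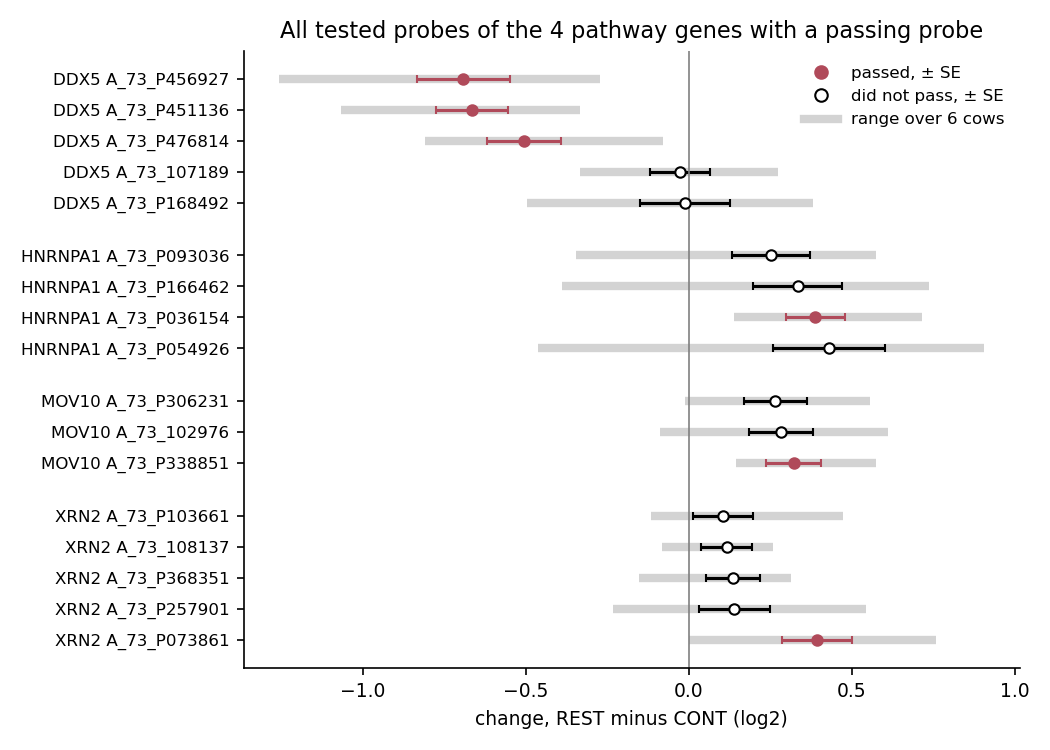
Change (REST minus CONT, log2, x axis) of all tested probes of DDX5, HNRNPA1, MOV10 and XRN2. Points with SE are filled red where the probe passed, and grey bars span the 6 cows. The 5 DDX5 probes form a group of 3 between -0.69 and -0.51 and a group of 2 near 0, whereas the probes of HNRNPA1, MOV10 and XRN2 all have positive changes.

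DICER1 was also set beside the other 7929 tested genes by the correlation of normalized signal over the 12 arrays, with no test. The closest were SRSF7, a splicing factor (r = 0.83), XRN1, the cytoplasmic exonuclease that degrades decapped mRNA (r = 0.81), and DNAJB2, a cochaperone (r = 0.81). The points share cows and slides. None of these genes passed between periods, with changes of -0.13, -0.05 and -0.05.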

How the data were processed

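Biopsies from 6 HOLS cows at CONT and REST were measured on 12 arrays. Per the file headers, the authors extracted spots with Feature Extraction 11.0.1.1, and the deposited values are processed intensity, background-subtracted and on a linear scale. The deposited series table held the same intensity in all 542640 cells, without the 75th percentile shift, which was therefore computed here. Non-uniform spots and population outliers (1 to 13 an array) were left out, 50 repeated probes were averaged, and 0 spots were saturated. RefSeq transcripts named 27131 of 43653 probes. The number of arrays limits the precision.

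Changes were fitted with limma 3.58.1 (R 4.3.3), with Benjamini-Hochberg adjustment over all tested probes, and the fit was tested on simulated data. The cow was a block because the labels give both biopsies of an animal the same name. Deviations from group means correlated at 0.356 to 0.574 within a cow and at -0.326 to 0.135 between arrays of different cows and periods. The arrays of a cow also shared a slide. A gene is described by all its probes, and 1 probe per gene means the brightest tested one. Genes named were all members, passing genes of each role of the pathway list (at most 4 a role), and the 3 genes most like DICER1. Members and lists were chosen with earlier results of these data known. Alternatives were other blocks, scalings, filters and background corrections, the methods' t-test and leaving out each cow. No sequence is printed.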

Additional observations from a re-analysis of the deposited data

Results flagged for a closer look

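In 3 of 30 groups of 6 arrays (15 probes in 2 periods), 1 array stood apart from the others by the gap to its neighbour relative to the range of the group, which chance does in about 1 group in 20. All were at dim probes that were not tested. For AGO1 probe A_73_P093766, cow 2 was low in CONT at -5.60, with the other cows between -4.32 and -3.75. For TARBP2 probe A_73_P359741, cow 6 was high in REST at -2.70, with the others between -3.44 and -3.20. For TARBP2 probe A_73_P439981, cow 5 was low in REST at -4.15, with the others between -3.39 and -3.05. Cows 5 and 6 were on the dim slide. The part of the slide in these values was not tested.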

How the results depend on the processing

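No microRNA processing gene passed in any setting tried. Of 145 alternative values, which include means over the tested probes of a gene, 141 kept their direction. Many of these could not have turned. Other blocks, filters and tests leave the change itself as in the main fit, and the deposited table held the same intensities. The count therefore overstates how stable the direction was. Values with a cow or slide left out, another scaling or another background correction were free to turn. The sign turned for AGO1 probe A_73_P165522 without cow 1 (-0.010), cow 2 (-0.000325) and cow 4 (-0.011), and for DICER1 without cow 2 (0.0032). With 1 cow left out the AGO1 value ran from -0.011 to 0.086 and the DICER1 value from -0.12 to 0.0032. With normexp that AGO1 value was 0.077. The probes not tested in the main fit are outside this count. Among them the sign turned without slide 3 at AGO2 probe A_73_P045226 (0.048), DICER1 probe A_73_P150061 (-0.0019) and TARBP2 probe A_73_P359741 (-0.33).

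Counts over the whole array depended more on the setting. The 3104 passing probes became 838 with no replicate block, 1900 with the slide as block, 386 with no filter on dim probes, 721 in the methods' t-test and 1860 in its paired form, and 1053 to 3261 with 1 cow left out. The 4 passing pathway genes (9.30% of those tested, against 20.5% of all genes) became 2 with no replicate block (4.65% against 5.67%), 7 with a random block (16.3% against 23.5%), 13 with normexp (7 higher and 6 lower, 30.2% against 24.5%), 1 with no filter (2.08% against 1.68%), 2 in the methods' t-test (4.65% against 5.38%), 7 without slide 3 (15.6% against 14.9%) and 1 to 7 with 1 cow left out (2.33% to 16.3% against 7.27% to 21.4%). The cause was not tested. The paired methods' t-test gave 0 of 7 member probes after adjustment and 4 at its threshold before it. Of the 8 untested member probes, 6 could be tested without slide 3. The other 2, A_73_P257181 of AGO2 and A_73_P446871 of TARBP2, were well above background on 1 and 5 of the 8 arrays of slides 1 and 2.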
